A study of Mus musculus with 6 samples.

Results

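Cell cycle and DNA replication genes were followed in nucleus accumbens tissue, a ventral striatal region of the mouse brain, after viral delivery of the long noncoding RNA Gas5. The set held 49 genes, chosen by symbol, of 54658 genes listed in the count tables. By role, 21 were placed in S phase (origin licensing, the replicative helicase, nucleotide supply, DNA synthesis and G1/S control) and 28 in mitosis (mitotic cyclins and kinases, spindle, cytokinesis and chromosome structure). Rows were found for 48 of them, and Anln2 matched none and was not analysed here. Prc1, Gins2, Cdt1 and Tk1 had a count of 0 in all 6 libraries. The whole span of each lies within another listed gene, where reads were not counted, so their levels are not known. The other 44, 18 of S phase and 26 of mitosis, all passed the filter on low counts and were tested.

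All 6 libraries came from accumbens tissue of male C57BL6 mice, bought as adults of 8 weeks. The 3 Gas5 libraries, lettered A, B and C, were from tissue micro-injected with a herpes simplex virus vector carrying Gas5-EGFP, and the 3 GFP libraries, lettered in the same way, from tissue given the vector with EGFP alone. No uninjected tissue was included, so both groups carry the injection and the virus. The labels name neither the promoter of the vector, the cells it reached, the time after injection, nor whether a library is 1 mouse or a pool, and p-values therefore measure the spread between these samples. Total counts ranged from 32359052 to 56081575. Gas5 itself stood between 22.6 and 23.6 CPM (counts scaled to a common library total) in the Gas5 libraries and between 16.5 and 18.6 CPM in the GFP libraries (1.30-fold, adjusted p 0.0163). Markers of medium spiny neurons, the principal neurons of the accumbens, were present throughout, at a summed level of 3631 to 4841 CPM in the Gas5 and 4445 to 5092 CPM in the GFP libraries.

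A dividing cell first licenses its replication origins with the MCM helicase, then copies its DNA in S phase, and later builds a spindle, separates its chromosomes and cleaves. E2F transcription factors drive many S phase genes, and mitotic genes are repressed and later activated through a promoter element called the cell cycle genes homology region (CHR), often beside CCAAT boxes. Most neurons of the adult accumbens do not divide, and in adult brain dividing cells are mainly glial precursors, microglia and progenitors near the ventricle.

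Promoters of both classes were searched for these elements, and those of the 7 members that passed the test below are printed, with that of Mcm3, the S phase member with the next smallest p-value whose window holds E2F-type letters. RefSeq windows of GRCm38.p6, from 250 bases before to 50 bases after the transcription start, were matched by symbol for 41 members. Each runs 5′ to 3′ on the strand of the gene. Capitals mark E2F-type letters (TTTCGCGC, TTTGGCGC or TTTCCCGC), CHR letters (TTTGAA or TTCGAA) and CCAAT, each searched on both strands, so that TTCAAA and ATTGG are matches on the opposite strand. No 2 kinds of match share a base in the windows printed.
Mcm3 (chr1:20820263-20820562, minus strand): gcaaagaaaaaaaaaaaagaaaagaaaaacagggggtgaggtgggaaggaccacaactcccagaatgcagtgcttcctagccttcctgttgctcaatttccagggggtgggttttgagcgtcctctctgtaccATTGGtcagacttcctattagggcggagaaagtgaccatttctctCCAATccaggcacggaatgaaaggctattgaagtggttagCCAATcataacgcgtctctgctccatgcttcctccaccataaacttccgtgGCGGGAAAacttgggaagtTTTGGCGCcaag
Rrm2 (chr12:24708004-24708303, plus strand): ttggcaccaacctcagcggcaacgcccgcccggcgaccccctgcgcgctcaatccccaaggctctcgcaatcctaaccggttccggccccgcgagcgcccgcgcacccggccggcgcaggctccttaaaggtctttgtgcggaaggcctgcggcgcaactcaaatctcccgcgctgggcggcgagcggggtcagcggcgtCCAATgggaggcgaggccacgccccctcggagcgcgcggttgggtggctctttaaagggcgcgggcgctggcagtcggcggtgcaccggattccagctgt
Ccne1 (chr7:38107441-38107740, minus strand): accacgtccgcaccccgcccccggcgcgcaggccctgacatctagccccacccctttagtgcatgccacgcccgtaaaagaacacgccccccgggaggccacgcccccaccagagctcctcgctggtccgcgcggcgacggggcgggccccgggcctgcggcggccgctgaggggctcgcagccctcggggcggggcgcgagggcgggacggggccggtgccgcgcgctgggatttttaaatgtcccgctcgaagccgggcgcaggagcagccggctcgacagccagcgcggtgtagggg
Mki67 (chr7:135716330-135716629, minus strand): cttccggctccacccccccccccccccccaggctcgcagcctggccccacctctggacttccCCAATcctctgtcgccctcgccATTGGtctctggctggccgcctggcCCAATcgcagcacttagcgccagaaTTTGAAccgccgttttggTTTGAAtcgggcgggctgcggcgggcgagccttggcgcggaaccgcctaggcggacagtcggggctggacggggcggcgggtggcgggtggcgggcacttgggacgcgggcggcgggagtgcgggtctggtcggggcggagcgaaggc
Kif11 (chr19:37376132-37376431, plus strand): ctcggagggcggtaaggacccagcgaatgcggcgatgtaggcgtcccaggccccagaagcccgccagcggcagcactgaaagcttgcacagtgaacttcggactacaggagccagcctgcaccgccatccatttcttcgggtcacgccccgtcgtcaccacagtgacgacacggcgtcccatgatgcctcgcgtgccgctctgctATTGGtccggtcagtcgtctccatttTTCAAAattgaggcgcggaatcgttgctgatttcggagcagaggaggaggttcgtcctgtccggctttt
Kif23 (chr9:61946750-61947049, minus strand): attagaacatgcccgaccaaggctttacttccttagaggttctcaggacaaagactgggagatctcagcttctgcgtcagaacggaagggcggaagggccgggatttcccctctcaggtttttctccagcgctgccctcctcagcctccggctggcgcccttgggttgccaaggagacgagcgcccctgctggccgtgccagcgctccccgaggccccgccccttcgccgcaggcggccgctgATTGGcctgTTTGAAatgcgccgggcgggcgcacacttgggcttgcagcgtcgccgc
Racgap1 (chr15:99651607-99651906, minus strand): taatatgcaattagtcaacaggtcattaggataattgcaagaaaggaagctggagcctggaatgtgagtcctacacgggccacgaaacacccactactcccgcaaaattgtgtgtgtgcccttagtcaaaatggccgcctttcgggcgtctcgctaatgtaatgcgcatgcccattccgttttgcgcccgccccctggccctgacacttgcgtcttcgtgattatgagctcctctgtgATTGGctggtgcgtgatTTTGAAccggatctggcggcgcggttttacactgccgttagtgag
Iqgap3 (chr3:88081801-88082100, plus strand): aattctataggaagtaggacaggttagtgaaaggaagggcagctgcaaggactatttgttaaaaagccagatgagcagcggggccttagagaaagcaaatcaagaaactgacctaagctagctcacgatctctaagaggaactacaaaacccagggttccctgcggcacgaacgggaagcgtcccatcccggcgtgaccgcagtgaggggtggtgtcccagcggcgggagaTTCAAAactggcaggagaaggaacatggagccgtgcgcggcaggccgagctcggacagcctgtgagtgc

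E2F-type letters were found in 9 of 18 S phase members with a window, 2 of 23 mitotic members (8.70%) and 2.12% of all 27025 genes with a window of the same length. CHR letters showed the opposite distribution, in 3 of 18 S phase members (16.7%), 18 of 23 mitotic members (78.3%) and 21.7% of all genes. For 17 of these 18 mitotic members a CHR match began within 50 bases of the start, the exception being among the sequences above, Mki67, with matches at -116 and -98. CCAAT occurred in 10 S phase members (55.6%), 18 mitotic members (78.3%) and 41.1% of all genes. Of the 5 mitotic members past the test all hold CHR letters, whereas Rrm2 holds CCAAT only and Ccne1 holds no match. A match is a description of the letters in this window and shows no binding.

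Of the 44 tested members, 6 were higher and 1 was lower in the Gas5 libraries at an adjusted p under 0.05 in the quasi-likelihood test of edgeR. Over all 17563 genes tested, 1.48% were called higher and 3.96% lower. The 6 were Rrm2 of S phase and Iqgap3, Mki67, Kif23, Racgap1 and Kif11 of mitosis, and the 1 was Ccne1. The log2 ratio (log2 of the fitted fold change of Gas5 over GFP) was above 0 in 41 of 44 members, with a median of 0.53, against 54.2% and a median of 0.02 for all genes tested. Every Gas5 library lay above every GFP library in 19 members, where 13.8% of all genes did so, and below in 1, against 13.9%. An unadjusted p under 0.05 was reached by 23 members and by 21.4% of all genes. Since the tissue was sequenced in bulk, more cells of a type and more RNA per cell cannot be told apart.

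The adjusted p-values of the 7 called members lay between 0.0251 and 0.0479, and the calls depended on single libraries. Without GFP B or without GFP C none of the 44 was called by edgeR (17 and 28 at an unadjusted p under 0.05). Calls over all genes also fell, from 955 with all 6 libraries to 115 without GFP B and 107 without GFP C. DESeq2 on all 6 libraries called 13 higher and 1 lower, among 1491 calls over all genes. Without GFP A the call remained for Iqgap3, and without Gas5 A for Iqgap3 and Mki67. Without Gas5 C it remained for Iqgap3, Mki67, Rrm2 and Ccne1. Without Gas5 B it remained for Iqgap3, Mki67, Rrm2, Kif11 and Racgap1 but not for Ccne1, and Aurkb was added. With a score of cortical or of microglia markers as covariate, which differed between the groups, 0 members were called.

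**Figure D1:**
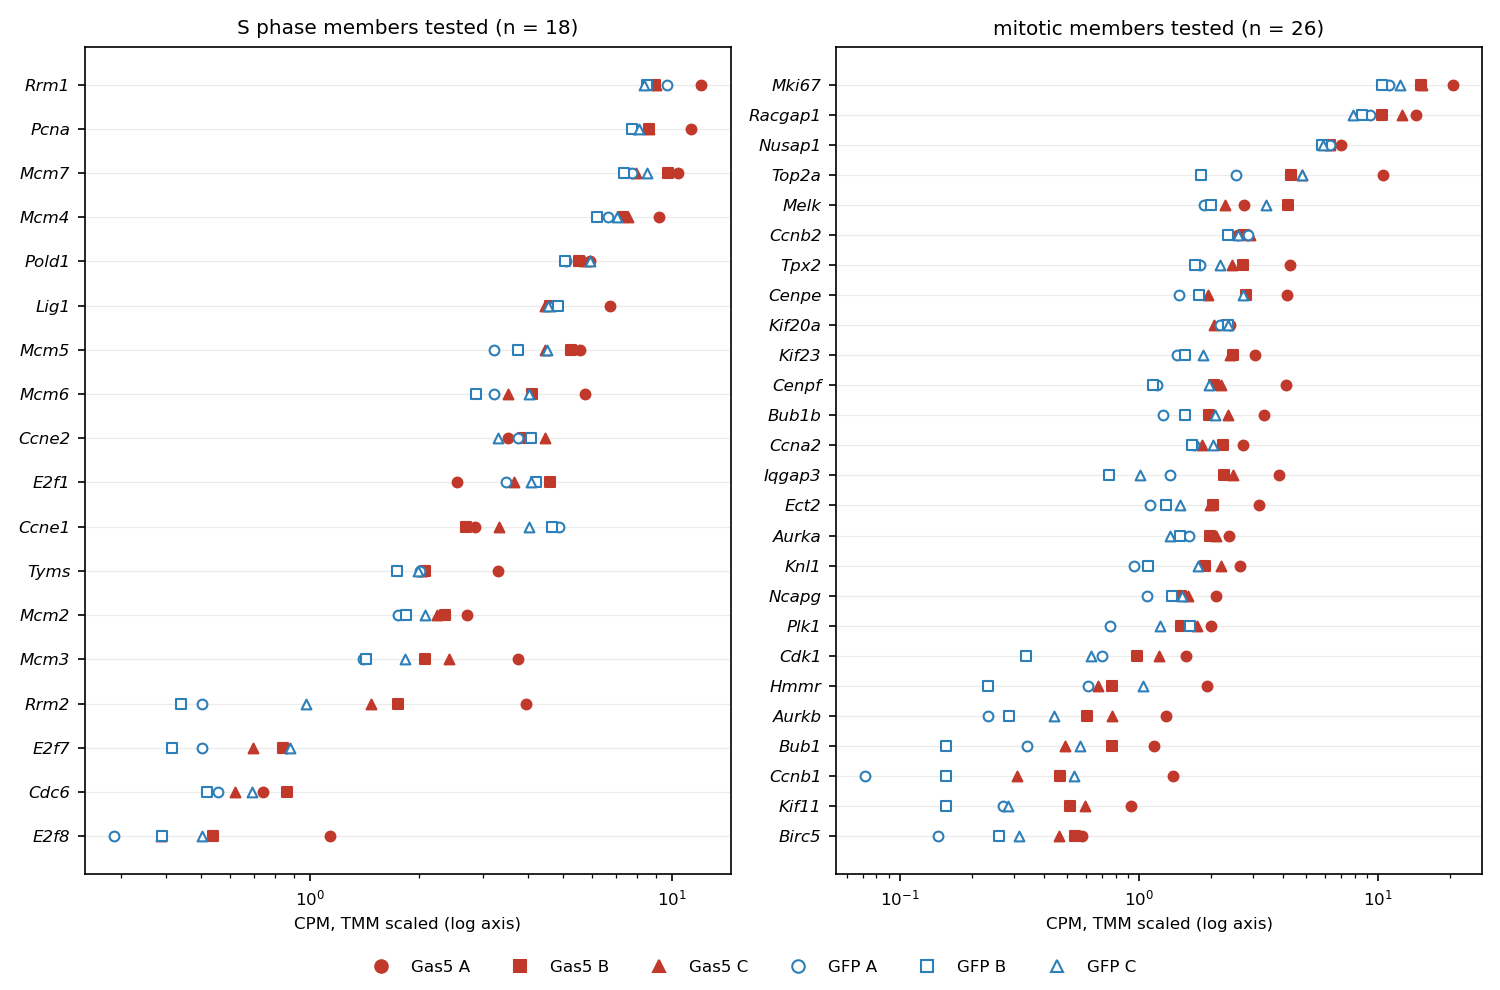
CPM on a log axis for each tested member in each library, with Gas5 libraries filled red and GFP libraries open blue, marked by letter. The left panel holds 18 S phase and the right 26 mitotic members, each ordered by mean CPM. Gas5 A is the rightmost point for 37 of the 44, and Ccne1 is the gene with all red points to the left.

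Levels were low. The mean over all 6 libraries, not corrected for gene length, ran from 0.383 CPM for Birc5 to 14.1 CPM for Mki67, with 10 members under 1 CPM. Per kilobase of span in which reads could be counted, Pcna was highest at 2.10 CPM and Kif11 lowest at 0.0101 CPM. The median per kilobase was 0.246 CPM for S phase and 0.0575 CPM for mitotic members. Counting covered introns as well as exons, so these values are not the level of mature message.

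Among genes that license origins and unwind DNA, 7 were tested and edgeR called none, while DESeq2 called 1. An unadjusted p under 0.05 was reached by 4, against 21.4% of all genes. Log2 ratios ran from 0.25 to 0.84. The largest was for Mcm3, a subunit of the MCM helicase, at 3.76, 2.08 and 2.43 CPM in Gas5 A, B and C against 1.40, 1.43 and 1.83 CPM in GFP A, B and C. The groups did not overlap, and the log2 ratio of 0.84 (standard error 0.244) had an adjusted p of 0.0882. Mcm2 (log2 ratio 0.38) and Mcm4 (0.27), also helicase subunits, were without overlap as well, and their adjusted p-values were 0.188 and 0.199. For Mcm5 (0.43), Mcm6 (0.41) and Mcm7 (0.25) GFP C lay above Gas5 C. Mcm7, the highest helicase gene per countable kilobase at 1.21 CPM, was measured on 7101 of its 7840 bases because microRNA and neighbouring genes share the rest. Cdc6, a loader of the helicase, rested on few reads, with 20 to 37 counts per library and a log2 ratio of 0.35.

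The largest change of any member was in nucleotide supply. Rrm2, the small subunit of ribonucleotide reductase that is made in S phase, had 170, 75 and 57 counts in Gas5 A, B and C against 28, 17 and 31 counts in GFP A, B and C. In the same order these are 3.94, 1.75 and 1.47 CPM against 0.504, 0.441 and 0.976 CPM. Gas5 A stood highest, and Gas5 B and Gas5 C also lay above each GFP library. Rrm2 was 3.87-fold higher (log2 ratio 1.95, standard error 0.448, adjusted p 0.0438). Leaving out 1 library gave log2 ratios from 1.38 to 2.33 and adjusted p-values up to 0.174, and the call was lost without Gas5 A or any 1 GFP library. Its partner Rrm1, the large subunit, which is not confined to S phase, had a log2 ratio of 0.18 and an adjusted p of 0.470. Tyms, the thymidylate synthase, had groups without overlap, a log2 ratio of 0.37 and an adjusted p of 0.359.

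Of 3 genes of DNA synthesis itself edgeR and DESeq2 called none, and 1 had an unadjusted p under 0.05, against 21.4% of all genes. Pcna, the sliding clamp of replication, was at 11.2, 8.60 and 8.65 CPM in Gas5 A, B and C against 7.86, 7.75 and 8.09 CPM in GFP A, B and C. The groups did not overlap, and the log2 ratio of 0.27 had a standard error of 0.114 and an adjusted p of 0.222. Lig1, the ligase that joins lagging strand fragments, and Pold1, the catalytic subunit of polymerase delta, had log2 ratios of 0.16 and 0.10. For Lig1, Gas5 A stood at 6.75 CPM and the other 5 libraries between 4.44 and 4.85 CPM.

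Cyclin E and E2F genes, which govern entry into S phase, included the 1 member that fell. Ccne1, which encodes cyclin E1, the partner of Cdk2 at the G1/S transition, was at 2.85, 2.69 and 3.33 CPM in Gas5 A, B and C. In GFP A, B and C it was at 4.86, 4.64 and 4.03 CPM, each above all Gas5 libraries. The fall was 1.53-fold (log2 ratio -0.62, standard error 0.132, adjusted p 0.0353). Without 1 library the log2 ratio lay between -0.72 and -0.55, and the call held only without Gas5 C, with adjusted p-values up to 0.141 elsewhere. Its paralog Ccne2 had a log2 ratio of 0.09 (adjusted p 0.759) and could be counted on 7807 of its 13429 bases, the rest being shared with Ints8. E2f1, an activator of S phase genes, was lowest in Gas5 A at 2.55 CPM and highest in Gas5 B at 4.61 CPM, with a log2 ratio of -0.11. E2f7 and E2f8, atypical E2Fs that repress E2F targets, had log2 ratios of 0.45 and 0.86 with overlap between the groups and adjusted p-values of 0.438 and 0.304.

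**Figure D2:**
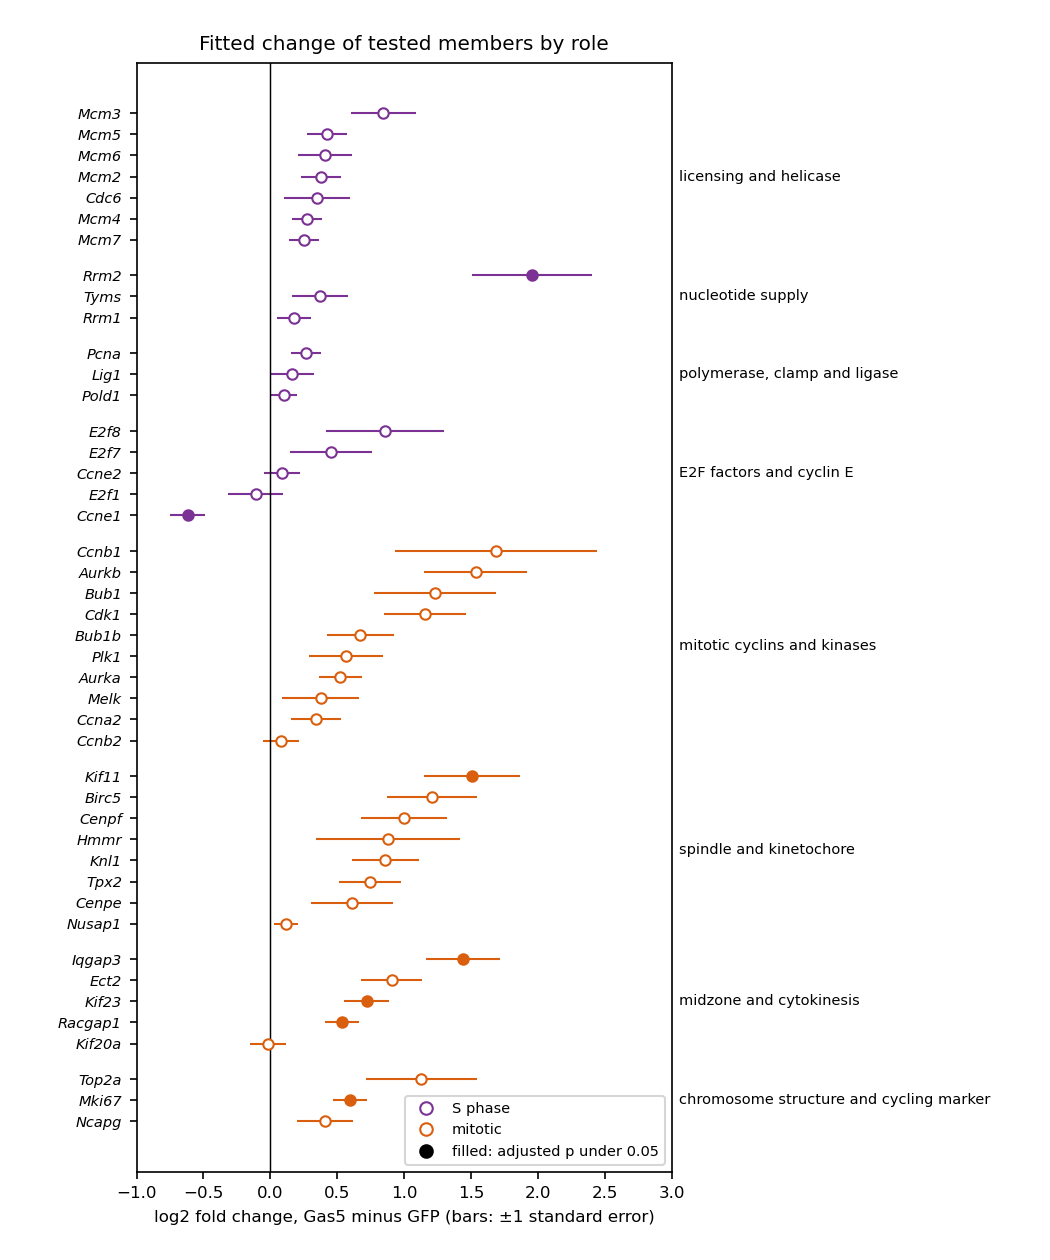
Fitted log2 ratio of each tested member, Gas5 minus GFP, on the horizontal axis, with bars of 1 standard error, grouped by role. Filled points passed an adjusted p of 0.05. Mitotic points (orange) extend further to the right than most S phase points (purple), from -0.02 for Kif20a to 1.69 for Ccnb1, and Ccne1 is the filled point left of 0.

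Of the mitotic members 5 rose and none fell, at an unadjusted p under 0.05 or by DESeq2 either, and 25 of 26 had a log2 ratio above 0. Of all genes tested 1.48% were called higher, and 54.2% had a log2 ratio above 0. Mki67, the antigen Ki-67 that coats mitotic chromosomes and marks cycling cells, was at 20.4, 15.0 and 15.2 CPM in Gas5 A, B and C against 11.03, 10.4 and 12.3 CPM in GFP A, B and C. The lowest Gas5 library was above the highest GFP library, and the rise was 1.51-fold (log2 ratio 0.59, standard error 0.127, adjusted p 0.0357). Leaving out 1 library gave 0.43 to 0.67, and the call was lost on leaving out any 1 GFP library, with adjusted p-values up to 0.151. Top2a, the topoisomerase that untangles sister chromatids, was at 10.4 CPM in Gas5 A and at 1.82 to 4.82 CPM in the other 5 libraries. GFP C, at 4.82 CPM, exceeded Gas5 B and Gas5 C, and the log2 ratio of 1.13 had an adjusted p of 0.160. Ncapg, a condensin subunit, had a log2 ratio of 0.41 and an adjusted p of 0.305.

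Genes of the spindle midzone and cytokinesis, of which 5 were tested, gave 3 of the 5 mitotic calls. The share called higher over all genes was 1.48%. Iqgap3, a scaffold protein of the IQGAP family, had 3.85, 2.27 and 2.48 CPM in Gas5 A, B and C against 1.35, 0.752 and 1.01 CPM in GFP A, B and C. It was 2.71-fold higher, with the smallest adjusted p of any member, 0.0251 (log2 ratio 1.44, standard error 0.276). Its call was lost without GFP B or GFP C, with an adjusted p of at most 0.115, and its log2 ratio stayed between 1.16 and 1.71 with any 1 library left out. Kif23 and Racgap1 encode the 2 subunits of centralspindlin, the complex that bundles the midzone, and Ect2 encodes the exchange factor that it recruits to start cleavage. Kif23 was at 3.04, 2.48 and 2.40 CPM against 1.44, 1.56 and 1.86 CPM, a rise of 1.65-fold with an adjusted p of 0.0468. Racgap1 was at 14.4, 10.3 and 12.5 CPM against 9.23, 8.53 and 7.87 CPM, a rise of 1.45-fold with an adjusted p of 0.0469. The Kif23 call was lost when any 1 library was left out, with adjusted p-values from 0.0623 to 0.173. For Racgap1 the call held only without Gas5 B, and adjusted p-values reached 0.175. Ect2 had no overlap between the groups, at 3.18, 2.03 and 1.99 CPM against 1.12, 1.30 and 1.48 CPM, and an adjusted p of 0.0594 for a log2 ratio of 0.91. Kif20a, the midzone kinesin, had a log2 ratio of -0.02 and was measured on 6327 of its 8642 bases, since Cdc23 shares the rest; its sign turned positive under upper quartile scaling.

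Spindle and kinetochore genes had 1 call of 8, where 1.48% of all genes were called higher. In 5 of the 8 every Gas5 library lay above every GFP library, as in 13.8% of all genes. Kif11, the kinesin that pushes spindle poles apart, rested on few reads, with 40, 22 and 23 counts in Gas5 A, B and C against 15, 6 and 9 counts in GFP A, B and C. The rise was 2.84-fold (log2 ratio 1.51, standard error 0.356, adjusted p 0.0479), and without 1 library it was called only when Gas5 B was left out, with adjusted p-values up to 0.183. Birc5, which encodes survivin of the chromosomal passenger complex, had 18 to 25 counts in the Gas5 and 8 to 10 counts in the GFP libraries, with a log2 ratio of 1.21 and an adjusted p of 0.0802. The kinetochore genes Knl1 and Cenpf and the spindle assembly factor Tpx2 had log2 ratios of 0.86, 0.9999 and 0.75 and adjusted p-values of 0.0918, 0.116 and 0.104. The kinesin gene Cenpe (0.61) and Hmmr (0.88), a spindle protein gene, overlapped between groups. For Cenpe GFP C lay above Gas5 C. For Hmmr GFP C, at 1.04 CPM, lay above Gas5 B at 0.771 CPM and Gas5 C at 0.671 CPM, and Gas5 A stood at 1.92 CPM. Nusap1, a microtubule-binding protein gene, stood at 5.81 to 6.96 CPM in all 6 libraries, and its log2 ratio was 0.12.

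None of the 10 mitotic cyclins and kinases was called by edgeR, although all 10 had a log2 ratio above 0. An unadjusted p under 0.05 was reached by 5, against 21.4% of all genes. DESeq2 called 2, among 1491 calls over 17563 genes. Aurkb, the kinase of the chromosomal passenger complex, came closest, at 1.30, 0.608 and 0.774 CPM in Gas5 A, B and C against 0.234, 0.285 and 0.441 CPM in GFP A, B and C. All Gas5 libraries were above all GFP libraries, and the log2 ratio of 1.53 had a standard error of 0.382 and an adjusted p of 0.0562. Cdk1, the kinase that drives entry into mitosis, and Aurka, the centrosomal Aurora kinase, also had groups without overlap, with log2 ratios of 1.15 and 0.52 and adjusted p-values of 0.0673 and 0.0995. Ccnb1, which encodes cyclin B1, had the largest log2 ratio of the mitotic members, 1.69, on 60, 20 and 12 counts against 4, 6 and 17 counts. Scaled to CPM, GFP C at 0.535 exceeded Gas5 B at 0.468 and Gas5 C at 0.310, the standard error was 0.755 and the adjusted p 0.242. Ccnb2, for cyclin B2, differed by 0.08 on the log2 scale (adjusted p 0.784). The checkpoint kinase genes Bub1 and Bub1b stood at 1.23 and 0.67, Plk1 at 0.56, the kinase gene Melk at 0.38, and Ccna2, whose cyclin acts in S phase and in G2, at 0.34. Adjusted p-values of these 5 ran from 0.162 for Bub1 to 0.496 for Melk.

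The median log2 ratio was 0.31 over the 18 tested S phase members and 0.73 over the 26 tested mitotic members, with all genes at 0.02. Of S phase members 1 rose (5.56%) and 1 fell, and of mitotic members 5 rose (19.2%). Over all genes tested 1.48% were called higher and 3.96% lower. Gas5 libraries lay wholly above GFP libraries for 6 S phase and 13 mitotic members, and for 13.8% of all genes tested. The difference between the classes was not tested, since the members are not replicates. Medians also differed with the level. Among members below the median of 2.16 CPM the medians were 0.84 for 5 S phase and 0.91 for 17 mitotic genes, and above it 0.25 for 13 and 0.53 for 9. The classes were closer together among the scarcer genes than over all members.

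**Figure D3:**
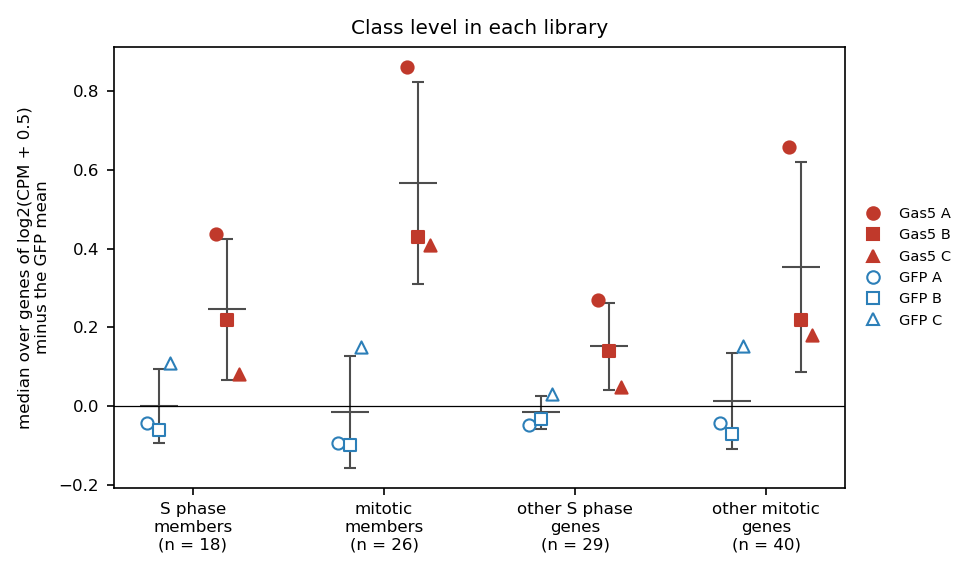
Median over genes of the difference in log2(CPM + 0.5) from the mean of the GFP libraries, on the vertical axis, in each library for both classes of members and both lists of other genes. Horizontal marks and bars are the mean and SD of 3 libraries. Gas5 A is the highest point in all 4 sets, and for S phase members GFP C, at 0.11, lies above Gas5 C, at 0.08.

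The differences were uneven between libraries of a group. The median difference of mitotic members from the GFP mean was 0.86 in Gas5 A, 0.43 in Gas5 B and 0.41 in Gas5 C, and -0.09, -0.10 and 0.15 in GFP A to C. For S phase members the values were 0.44, 0.22 and 0.08 against -0.04, -0.06 and 0.11 in the GFP libraries, so the groups overlapped in this measure. Gas5 A was the highest of the 6 libraries in 37 of 44 members, 24 of them mitotic, against 24.8% of all genes tested. GFP C was the highest of the GFP libraries in 31 of 44. Gas5 A stood at a median of 1.33 times the mean of Gas5 B and Gas5 C over the members, where all genes tested had a median ratio of 1.0004. Without Gas5 A the medians were 0.16 for S phase and 0.46 for mitotic members. Summed over tested members, S phase transcripts came to 80.2 CPM ± 10.5 in the Gas5 and 68.2 CPM ± 2.77 in the GFP group (SD, n = 3 each), and these sums did not overlap, the lowest Gas5 library being at 72.5 CPM and the highest GFP library at 71.3 CPM. Mitotic transcripts came to 85.9 CPM ± 17.9 against 56.7 CPM ± 6.55, also without overlap, and the lowest Gas5 library, at 75.3 CPM, was above the highest GFP library, at 64.2 CPM.

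Other cell cycle genes, from lists chosen by role with earlier results of these data known, showed the same order of medians. Their summed CPM did not, at a ratio of Gas5 over GFP of 1.10 for S phase and 1.08 for mitotic genes. Sums of the other mitotic genes overlapped between the groups, with Gas5 C at 398 CPM and GFP C at 412 CPM. Of 29 tested other S phase genes edgeR called none (10 at an unadjusted p under 0.05, 1 by DESeq2). The share of all genes at that unadjusted p was 21.4%. Their median log2 ratio was 0.16, with 24 of the 29 above 0. Uhrf1, a factor that maintains DNA methylation through replication, was the first by p, at 3.57, 1.89 and 1.63 CPM in Gas5 A, B and C against 0.882, 0.804 and 1.23 CPM in GFP A, B and C, with an adjusted p of 0.0576. Of 40 tested other mitotic genes none fell (1 lower at an unadjusted p under 0.05, and 1 by DESeq2). Their median was 0.54, with 38 above 0. Against 1.48% of all genes called higher, 2 of the 40 rose. They were Foxm1, a transcription factor that activates mitotic genes with CHR elements, at 1.97-fold (adjusted p 0.0417), and Pbk, a mitotic kinase, at 4.37-fold (adjusted p 0.0450). Foxm1 was at 2.88, 2.20 and 1.86 CPM against 1.15, 0.985 and 1.42 CPM, without overlap. Both calls were lost without Gas5 A or any 1 GFP library, Foxm1 also without Gas5 B and Pbk without Gas5 C, with adjusted p-values up to 0.165. Anln, the anillin gene, named here for its likeness to the unmatched symbol, went the other way at 20.9, 21.02 and 17.8 CPM against 22.9, 25.6 and 24.4 CPM, with a log2 ratio of -0.28 and an adjusted p of 0.0745. CHR letters occurred in 25 of 34 other mitotic genes with a window and 6 of 26 other S phase genes, and E2F-type letters in 3 and 9.

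Genes of G1 moved in both directions. Of 12 tested G1 cyclins, their kinases and pocket proteins, 2 rose and 1 fell, with a median of 0.12. Over all genes, 1.48% were called higher, 3.96% lower, and 21.4% had an unadjusted p under 0.05. Ccnd2, cyclin D2, fell from 40.8, 45.4 and 45.9 CPM in GFP A, B and C to 24.4, 29.0 and 33.5 CPM in Gas5 A, B and C, 1.52-fold with an adjusted p of 0.0188. Ccnd3, cyclin D3, rose 1.21-fold (adjusted p 0.0357) and Rbl1, the pocket protein p107 that represses E2F targets, 1.52-fold (adjusted p 0.0447). The Ccnd2 call was lost without GFP B or GFP C (adjusted p up to 0.0976), that of Ccnd3 in every case but without Gas5 C (up to 0.144), and that of Rbl1 whenever 1 library was left out (0.0505 to 0.176). None of 13 tested inhibitors of cyclin-dependent kinases and p53 targets was called by edgeR or DESeq2 (1 at an unadjusted p under 0.05), with a median of 0.05. The first 2 by p were Ccng1, with a log2 ratio of -0.18 and an adjusted p of 0.219, and Cdkn2c, with 0.64 and 0.282.

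Markers of other cells and of neighbouring tissue also differed between these libraries. Over all genes, 1.48% were called higher, 3.96% lower, and 21.4% had an unadjusted p under 0.05. Cortical excitatory neuron markers, 8 of 10 of them called lower, summed to 161 to 214 CPM in the Gas5 and 384 to 521 CPM in the GFP libraries, and were lowest in Gas5 A. Microglia markers, of which 9 of 9 tested had a log2 ratio above 0 and edgeR called 0 (6 at an unadjusted p under 0.05, 2 by DESeq2), summed to 305 to 333 CPM against 261 to 295 CPM, highest in Gas5 A. Blood leukocyte markers summed to 38.6 to 46.6 CPM against 30.9 to 33.2 CPM. The largest parts were Ptprc, also a microglial gene and the 1 called by edgeR, and Cd4. DESeq2 called 2 of the list higher. Ptprc was at 28.9, 22.2 and 23.1 CPM against 16.6, 13.5 and 15.8 CPM. Cd4 went the other way, at 8.86, 17.2 and 11.8 CPM against 14.0, 16.5 and 15.2 CPM, with a log2 ratio of -0.27 (adjusted p 0.498). Cd3e, Cd3g, Cd8a, S100a8 and S100a9 each had a mean under 0.3 CPM and Ms4a1 was at 0. Gzmb and Nkg7, genes of cytotoxic lymphocytes, were also under 0.3 CPM on average and below the filter, but each Gas5 library was above each GFP library. Gzmb was at 0.580, 0.210 and 0.439 CPM against 0.108, 0.0519 and 0.157 CPM, and Nkg7 at 0.278, 0.0701 and 0.129 CPM against 0.0540, 0 and 0.0315 CPM. Ly6c2 and Ccr2, genes of inflammatory monocytes, had log2 ratios of 2.56 and 1.23 with adjusted p-values of 0.0722 and 0.336. Ly6c2 was at 4.64, 0.818 and 1.42 CPM against 0.468, 0.156 and 0.535 CPM, without overlap. Ccr2 was at 2.92, 0.444 and 0.955 CPM against 0.666, 0.259 and 0.944 CPM, with overlap. Both were highest in Gas5 A. Ependymal markers, Rsph1 of 2 tested called higher, summed to 5.88 to 6.70 CPM against 4.09 to 4.64 CPM, with Tmem212, Ccdc153 and Dynlrb2 each under 0.1 CPM. Neuroblast markers of the subventricular zone overlapped, at 137 to 183 CPM against 130 to 148 CPM, with Sp8 called lower. Of the 8 tested, 5 had a log2 ratio above 0, and the median was 0.19. Oligodendrocyte precursor markers overlapped, at 91.7 to 101 CPM against 87.6 to 92.8 CPM, with none called by edgeR or DESeq2 (2 at an unadjusted p under 0.05). Astrocyte markers were at 2472 to 2987 CPM against 2842 to 3040 CPM. That sum is mostly Slc1a2, a glutamate transporter gene, with a log2 ratio of -0.21 (adjusted p 0.258). The other 4 tested astrocyte markers, Aqp4, Gja1, Aldh1l1 and Slc1a3, had log2 ratios of 0.28 to 0.43 and an unadjusted p under 0.05, of which edgeR called Aqp4 and DESeq2 called 2 higher. Endothelial markers were at 174 to 184 CPM against 193 to 201 CPM with Flt1 called lower. The largest parts of that sum were Flt1 and Slco1a4, with log2 ratios of -0.20 and -0.18. Cldn5, Pecam1 and Cdh5 had log2 ratios of 0.012, 0.019 and 0.006. P2ry12, Gpr17, Dlx1, Gfap and Ms4a1 are at 0 because no base of their spans could be counted.

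The cortical and the microglia marker scores (mean log2 CPM of the list) were each entered as a covariate. These scores did not overlap between the groups, so score and group can hardly be separated in 6 libraries. With the cortical marker score in the fit, edgeR called 0 members and 0 of all genes, 1 member had an unadjusted p under 0.05, and 24 of 44 members had a log2 ratio below 0. The medians were then -0.16 for S phase and 0.01 for mitotic members. With the microglia marker score they were -0.09 and 0.03, and 0 members and 1 gene of all were called. Whether these cells or tissue account for the levels of the cell cycle genes was not tested.

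**Figure D4:**
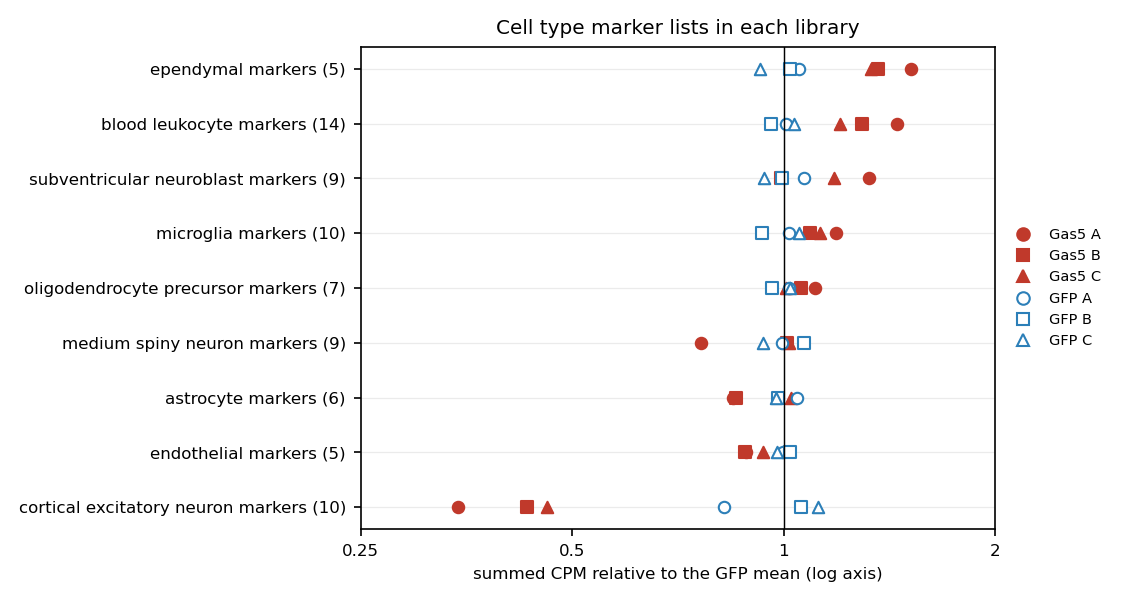
Summed CPM of each cell type marker list in each library, divided by the mean of the GFP libraries, on a log axis, with Gas5 libraries filled red and GFP libraries open blue and the number of genes in brackets. Cortical markers are lower in all Gas5 libraries, and ependymal, blood leukocyte and microglia markers are higher in all of them.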

How the data were processed

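Per the labels' protocols, total RNA was depleted of ribosomal RNA and made into strand-marking libraries. GRCm38.p6, featureCounts 1.5.0-p3, STAR 2.7.0, edgeR 3.20.9 and Trim Galore 0.4.4 stand in the submitters' processing notes. The authors deposited raw counts per gene, 1 table per library. The annotation release, strand setting and overlap rule were not given in the sources used here. In the tables the length of each gene in 1 piece equals its whole span, so introns are counted, and none of the 12811 genes whose span is wholly shared has a count. Exon and overlap figures use GENCODE M21 and the spans in the tables.

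Counts were analysed with R 4.3.3 and edgeR 4.0.16. Genes passing filterByExpr (17563) were scaled by TMM, and 3 Gas5 were compared with 3 GFP libraries by the 2-sided quasi-likelihood F-test, with Benjamini-Hochberg adjustment over all genes and a threshold of 0.05. Standard errors are the absolute log2 fold change (log2 ratio) over the square root of F. CPM are TMM scaled, and logarithms add 0.5. The fit was tested on simulated data. Replicates within a group differed beyond sampling noise (chi-square per degree of freedom 4.82 to 23.3).

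Members and lists were chosen with earlier results of these data known. All members may be named. Of the other cell cycle lists the called genes and the 2 of smallest p in each are named, except 1 that is not reported here, and Anln was added after its values were seen. Alternatives were RLE and upper quartile scaling, no filter or 1 CPM in 3 libraries, DESeq2 1.42.0, the replicate letter as block, cortical or microglia marker score (mean log2 CPM of the list) as covariate, leaving out each library and a shorter promoter window.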

Additional observations from a re-analysis of the deposited data

How the results depend on the processing

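RLE and upper quartile scaling kept 6 members called higher, the same genes, and 1 lower. Without a filter 14 members were called higher (2 of S phase, 12 mitotic) and DESeq2 called 13 (2 and 11), the 6 among them in both. Both settings also called more genes in all, 1658 of 28611 without a filter and 1491 of 17563 by DESeq2, against 955 of 17563. A filter of 1 CPM tested 34 members and called 5 of the 6. With the replicate letter as block, 6 were called higher, Cdk1 in place of Kif23 (adjusted p 0.0281 and 0.0621), among 1438 calls in all against 955, and no other member's call changed. Same-lettered libraries did not all deviate together (correlations 0.16, 0.18 and -0.0936 for A, B and C), so letters were not taken as pairs. Gas5 A and Gas5 B each correlated best with their own letter and Gas5 C did not. Of other cell cycle genes, 10 were higher and 2 lower without a filter, 7 and 2 by DESeq2, and 6 and 1 with the block.

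Either covariate left 0 members and 0 other cell cycle genes called. The cortical score gave medians of -0.16 for S phase and 0.0076 for mitotic members, and the microglia score -0.0887 and 0.032. Directions turned with the cortical score for Bub1 -0.40, Ccna2 -0.26, Ccnb1 -0.85, Ccnd2 0.15, Cenpe -0.35, Cenpf -0.23, E2f1 0.9999, E2f8 -1.03, Hmmr -1.45, Iqgap3 -0.11, Lig1 -0.77, Mcm3 -0.089, Mcm4 -0.18, Mcm6 -0.48, Mcm7 -0.16, Mki67 -0.023, Nusap1 -0.21, Pbk -0.0201, Pcna -0.30, Racgap1 -0.0464, Rbl1 -0.035, Rrm1 -0.64, Rrm2 -0.15, Top2a -0.47, Tpx2 -0.38, Tyms -0.80 and Uhrf1 -0.35, and with the microglia score for Bub1 -0.23, Bub1b -0.10, Ccna2 -0.0806, Ccnb1 -0.90, Cenpe -0.21, Cenpf -0.30, E2f1 0.57, E2f7 -0.14, E2f8 -0.41, Hmmr -1.51, Lig1 -0.26, Mcm3 -0.0625, Mcm4 -0.11, Mcm6 -0.31, Nusap1 -0.0475, Pcna -0.0905, Pold1 -0.0868, Rrm1 -0.22, Top2a -0.77, Tpx2 -0.0568 and Tyms -0.36 (log2 ratio). The cause was not tested. Kif20a turned to 0.0071 under upper quartile scaling.

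Leaving out 1 library gave 0 to 6 members called higher and 0 to 1 lower (S phase 0 to 1 and 0 to 1, mitotic 0 to 5 and 0), and 0 to 3 other cell cycle genes higher and 0 to 1 lower. Over all genes edgeR called 612, 846 and 783 without Gas5 A, B or C. Without GFP A, B or C it called 847, 115 and 107, against 955 with all 6 libraries. Medians ran from 0.16 to 0.38 for S phase and 0.46 to 0.87 for mitotic members, above S phase in all 15 settings. Ranges crossed 0 for Ccne2 (-0.0149 to 0.15), E2f1 (-0.33 to 0.0845), Lig1 (-0.0661 to 0.26) and Kif20a (-0.0625 to 0.0336). In a promoter window starting 150 bases before the start, the members' counts stayed within 1.5 times, and the share of all genes with CHR letters fell from 21.7% to 13.7%. Depth limits members such as Kif11, Ccnb1, Birc5, Aurkb, Cdc6 and E2f8, with under 100 counts in each library.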
